A study of Mus musculus with 4 samples.

Results

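RNA-poor spots of a mouse brain slice taken 2 days after photothrombotic injury (2 dpi) were selected on their total UMI count, from 200 to 2000, and numbered 775 of the 1726 spots of that slice and of 9340 spots over tissue in the whole series. They were set against the 651 spots of the same slice with at least 8000 UMIs, called RNA-rich here. A UMI is a molecular barcode that counts each captured RNA molecule once, and a Visium spot is a small area of the slice that can hold several cells or parts of cells. The 2 dpi slice shared its capture area with a slice from an uninjured mouse (at rest), both wild type (WT) and fresh frozen, with 12 minutes of permeabilization. The methods give mice of both sexes, 7 to 21 weeks old unless stated, and do not give the age or sex of these 2 mice. In the injury, Rose Bengal dye was activated by light over the somatosensory (S1) cortex. Other capture areas held slices at 7 and 21 dpi. The labels do not say which slice of the shared area was at rest, so the larger piece, of 1726 against 1017 spots, was taken as the 2 dpi slice from the outlines shown by the study, and no expression value entered that choice. With 1 slice from 1 mouse there was no replicate and no test. All intervals below are 95% intervals that cover counting error only. They cover neither variation between mice nor the clumping of transcripts in few spots.

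Light-activated Rose Bengal injures the endothelium and clots small vessels, and the tissue they supply dies within hours and forms an infarct. Neutrophils are among the first blood cells to enter an infarct, monocytes follow and become macrophages that clear dead cells and lipid, and microglia and astrocytes react in the surviving tissue around it. Fewer cells in a spot and less RNA per cell cannot be told apart in these counts. No outline of the infarct was used here, so the spots are called by their UMI count.

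RNA-poor spots formed a compact field under the curved outer surface of the slice. Of the 775 spots, 759 (97.9%) belonged to a single connected group, the next group had 10 spots, and 6 spots stood alone. On average 5.13 of the 6 neighbours of an RNA-poor spot were RNA-poor too, and 447 spots (57.7%) were surrounded by RNA-poor spots on all sides. The field spanned array rows 16 to 64 and columns 11 to 67, whereas RNA-rich tissue lay on the side of low columns and in the deepest rows. Spots between these limits, 298 in all, lay mostly between these fields, with a median of 2 steps between neighbouring spots to the nearest RNA-rich spot. RNA-poor spots lay 1 to 26 steps from the nearest RNA-rich spot, with a median of 10, and 40 of them were at the edge of the tissue. The map of UMI classes shows the field and its boundary.

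**Figure D1:**
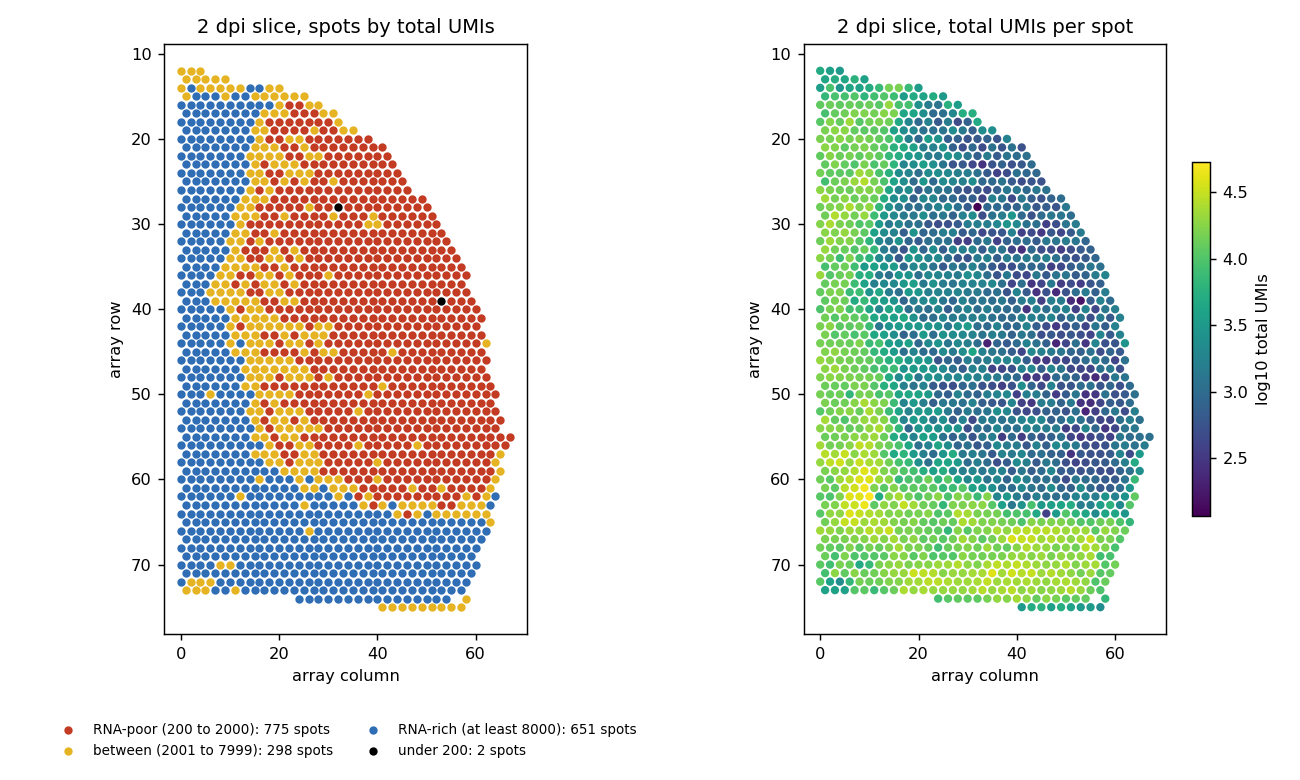
Spots of the 2 dpi slice at their array column and row, coloured by UMI class on the left (775 RNA-poor, 298 between, 651 RNA-rich, 2 under 200) and by log10 total UMIs on the right. The RNA-poor spots fill a field that reaches the curved outer surface, with RNA-rich spots at low columns and in the deepest rows.

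The RNA-poor spots had a median of 1017 UMIs and 651 genes, against 15851 UMIs and 4896 genes in RNA-rich spots, which is the property that chose them. The mean UMI count differed 16.3-fold. The RNA-poor spots held 6.20% of the UMIs of the slice (811445) and 44.9% of its spots. The limits cut through a continuous range: the spots nearest the upper limit had 1997 and 2005 UMIs, and those nearest 8000 had 7840 and 8035. In the slice at rest, 2 of 1017 spots had 200 to 2000 UMIs.

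Relative to their own totals, RNA-poor and RNA-rich spots had broadly similar transcript shares. Of 9322 genes with at least 10 UMIs anticipated in the RNA-poor spots from the pooled share, 8874 (95.2%) differed by less than 2-fold in UMIs per 10000, and the median log2 ratio was -0.10. At least 2-fold higher shares in RNA-poor spots were found for 51 genes (0.547% of those compared), and at least 2-fold lower shares for 397 (4.26%). Per spot, none of the 9322 genes had more UMIs in RNA-poor than in RNA-rich tissue. This follows from the choice of spots by total UMIs: with means 16.3-fold apart, a share ratio above 16.3 would be needed. The highest ratio was 9.37, so for these genes a higher share stands beside a lower absolute count. Genes with higher and lower shares had transcripts of similar length, with medians of 2998 and 3013 bases for the longest annotated transcript, against 3559 bases for all genes compared.

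**Figure D2:**
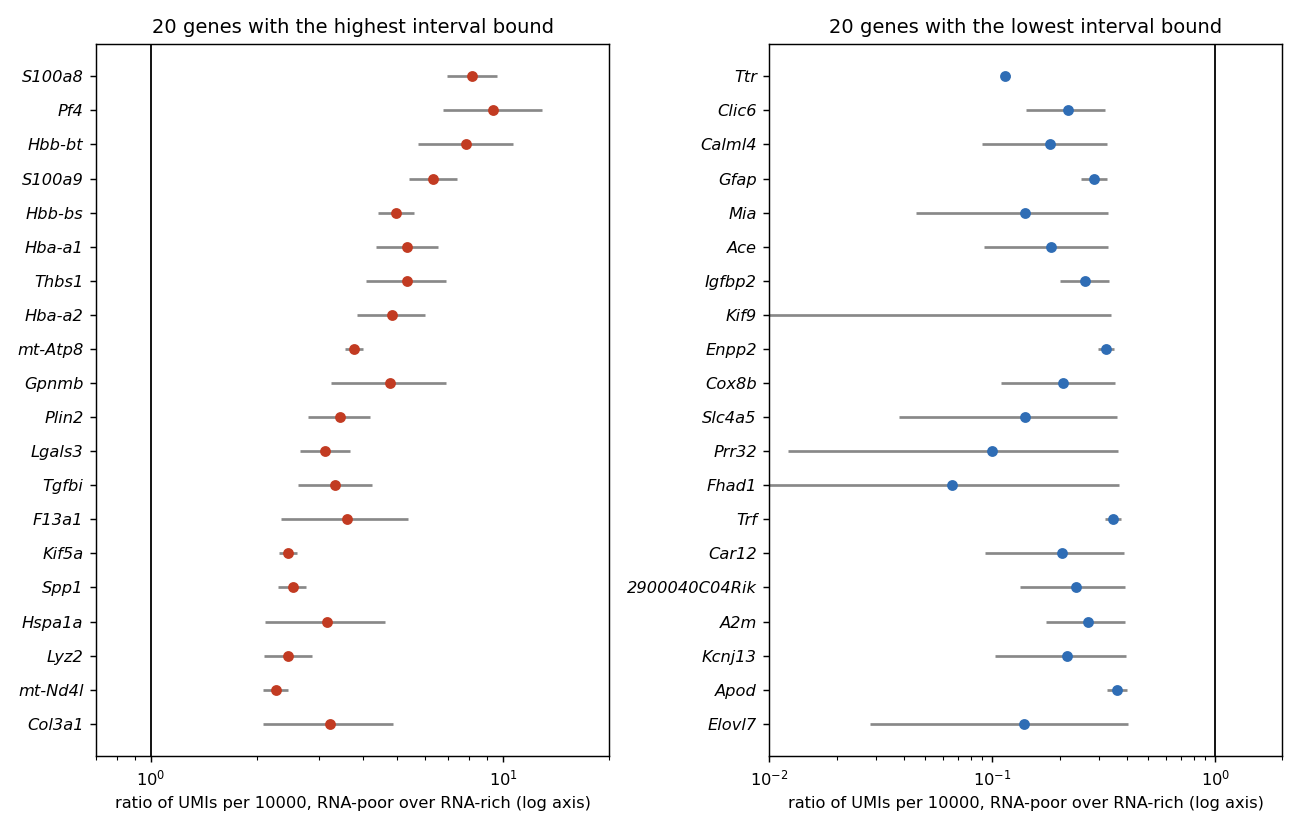
Ratio of UMIs per 10000 in RNA-poor over RNA-rich spots of the 2 dpi slice, on a log axis, for the 20 genes with the highest (left) and the 20 with the lowest (right) interval bound. Points are ratios and lines their 95% counting intervals, cut at the left end of the axis for Kif9 and Fhad1. S100a8 leads on the left at 8.16 and Ttr on the right at 0.114.

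S100a8 and S100a9 encode the 2 subunits of calprotectin, a calcium-binding protein that fills the cytoplasm of neutrophils. S100a8 had 2.99 UMIs per 10000 in RNA-poor spots, 1.46 in spots between, 0.367 in RNA-rich spots and 0.00572 in RNA-rich spots at rest. The ratio of RNA-poor to RNA-rich was 8.16 (6.94 to 9.59). S100a9 stood at 2.87 per 10000 in RNA-poor and 0.453 in RNA-rich spots, a ratio of 6.34 (5.40 to 7.42). Both genes were nearly unseen in the slice at rest, with 9 and 13 UMIs over 905 RNA-rich spots.

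S100a8 and S100a9 lie close to each other on mouse chromosome 3 and are transcribed from opposite strands. Their promoters are shown because these genes held most UMIs of the neutrophil list. Each sequence runs 5′ to 3′ from 250 bases before to 50 after the RefSeq start (GRCm38.p6), and capitals mark the motif TATAAA. It was searched on both strands and occurs in 13.6% of 32851 mouse promoters of this length. S100a8 lies on the plus strand (chr3:90668821-90669120) and S100a9 on the minus strand (chr3:90695672-90695971).
S100a8: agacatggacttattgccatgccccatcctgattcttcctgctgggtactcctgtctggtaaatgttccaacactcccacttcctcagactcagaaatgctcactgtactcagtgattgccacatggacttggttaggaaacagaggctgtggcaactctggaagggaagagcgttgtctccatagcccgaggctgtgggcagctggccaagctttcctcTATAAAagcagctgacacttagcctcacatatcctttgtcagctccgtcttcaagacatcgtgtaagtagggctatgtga
S100a9: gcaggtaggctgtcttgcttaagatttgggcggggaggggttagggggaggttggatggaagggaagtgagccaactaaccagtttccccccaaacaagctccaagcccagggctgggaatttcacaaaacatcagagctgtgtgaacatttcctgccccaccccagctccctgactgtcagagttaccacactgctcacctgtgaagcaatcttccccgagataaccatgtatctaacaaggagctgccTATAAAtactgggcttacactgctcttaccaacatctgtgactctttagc
The motif starts 30 bases before the annotated start in S100a8 and at base 251 of the window, the annotated start itself, in S100a9. A match of letters is a description and not a measured site.

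The other neutrophil genes were sparse. Of the 13 listed neutrophil genes only S100a8 and S100a9 reached the count minimum. Retnlg, a secreted neutrophil product, had 20 UMIs in RNA-poor and 54 in RNA-rich spots (ratio 5.08, 2.88 to 8.62). Csf3r, the receptor for granulocyte colony-stimulating factor, had 18 and 69 (3.58, 2.00 to 6.08). Cxcr2, the chemokine receptor that guides neutrophils, had 10 UMIs in RNA-poor and 7 in RNA-rich spots, and was singled out after its values were seen as one of 2 genes with at least 10 UMIs in RNA-poor spots and more UMIs per spot there. The other was Ppbp, a platelet chemokine, with 11 and 4 UMIs. Both genes lay under the count minimum. A filter on UMIs in RNA-poor spots alone favours genes that are high there, so no comparison is drawn from these 2 genes. Camp, Ltf and Ly6g, the first 2 of them granule proteins made in bone marrow, had no UMI in RNA-poor spots and 1, 0 and 1 in RNA-rich spots. They were too sparse in both groups to compare. Together the neutrophil list had 6.83 UMIs per 10000 in RNA-poor and 0.986 in RNA-rich spots, a ratio of 6.92 (6.24 to 7.67).

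Neutrophil transcripts were concentrated in few spots. The list had at least 1 UMI in 184 of 775 RNA-poor spots (23.7%), 108 of them had exactly 1, and the 10 highest spots held 40.1% of its 554 UMIs. The highest spot had 47. S100a8 was detected in 99 RNA-poor spots, S100a9 in 102 and both in 44, which is 44.4% of the former and 43.1% of the latter. When every spot was thinned to 200 UMIs, a neutrophil transcript remained in 62 of 775 RNA-poor spots (exact binomial interval 6.19% to 10.1%), 9 of 651 RNA-rich spots (1.38%, 0.634 to 2.61) and 1 of 905 spots at rest (0.110%, 0.0028 to 0.614). Binomial intervals take spots as independent, which neighbouring spots of 1 slice are not, so they are too narrow for the slice.

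**Figure D3:**
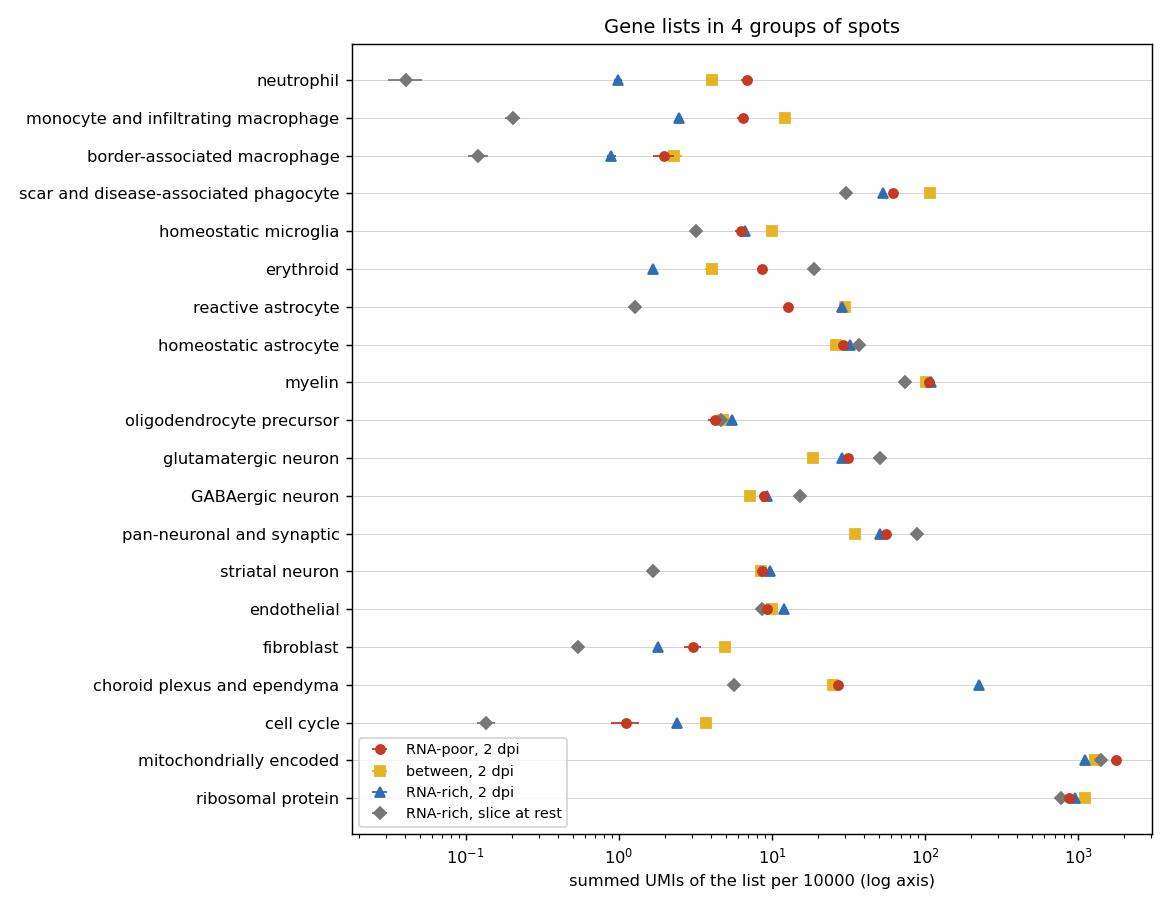
Summed UMIs per 10000, on a log axis, of 20 gene lists in 775 RNA-poor, 298 intermediate and 651 RNA-rich spots of the 2 dpi slice and in 905 RNA-rich spots at rest, with 95% counting intervals. The neutrophil list stands highest in RNA-poor spots (6.83), whereas the monocyte list (12.2) and the scar phagocyte list (108) stand highest in the spots between.

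Monocyte and macrophage genes also had a higher summed share, and the list was higher still in the spots between. The monocyte and infiltrating macrophage list had 6.42 UMIs per 10000 in RNA-poor, 12.2 in intermediate and 2.47 in RNA-rich spots, and the ratio of RNA-poor to RNA-rich was 2.60 (2.36 to 2.85). Beside 0.547% of all genes compared, 2 of its 6 genes above the count minimum were at least 2-fold higher. These were Lyz2, the lysozyme of myeloid cells, at 2.34 against 0.955 per 10000 (ratio 2.45, 2.09 to 2.86), and Thbs1, a matrix glycoprotein of platelets and inflammatory macrophages, at 1.04 against 0.194 (5.33, 4.09 to 6.89). Msr1, a scavenger receptor, had a ratio of 1.09 (0.647 to 1.75). Arg1, the arginase of wound macrophages, narrowly missed the count minimum and was named after its values were seen. It had 71 UMIs in RNA-poor and 60 in RNA-rich spots, and 0.875 against 0.0539 per 10000.

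Among phagocyte genes linked to debris and lipid uptake, the members differed. Gpnmb, a glycoprotein of lysosome-rich macrophages, stood at 0.493 per 10000 in RNA-poor and 0.103 in RNA-rich spots (ratio 4.77, 3.24 to 6.89). Lgals3, a galectin of activated phagocytes, had a ratio of 3.13 (2.64 to 3.68), and Spp1, which encodes osteopontin, one of 2.53 (2.30 to 2.77). Plin2, a coat protein of lipid droplets, was at 1.54 against 0.449 per 10000 (3.43, 2.80 to 4.19). Each of these was higher in intermediate than in RNA-poor spots, with Spp1 at 21.0 and Lgals3 at 5.50 per 10000 there. The cathepsins Ctsd and Ctsb, lysosomal proteases, were closer to equal (1.17 and 1.29), and the tetraspanin Cd9 was lower (0.627, 0.524 to 0.744). The whole list of 13 genes had a ratio of 1.16 (1.12 to 1.19), with 3 genes at least 2-fold higher, beside 0.547% of all genes compared. Homeostatic microglia genes, of which P2ry12 is a purinergic receptor lost on activation, had a list ratio of 0.941 (0.859 to 1.03). None of the 10 compared differed by 2-fold, near the 95.2% below that limit among all genes compared.

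Pf4, a chemokine of platelets that border-associated macrophages express as well, had the highest ratio of all genes compared, 9.37 (6.76 to 12.9), at 0.826 against 0.0881 per 10000. F13a1, a clotting factor subunit found in the same cells, had a ratio of 3.60 (2.34 to 5.39), whereas Mrc1, the mannose receptor of border-associated macrophages, had one of 0.529 (0.270 to 0.937). None of the 9 platelet genes reached the count minimum. The platelet list as a whole had 19 UMIs in RNA-poor spots (ratio 2.74, 1.58 to 4.52), most of them of Ppbp, singled out above with Cxcr2. Which of these cells the Pf4 transcripts came from cannot be told apart in these spots. Tgfbi, a matrix protein secreted by macrophages and fibroblasts, stood at 1.07 against 0.321 per 10000 (3.34, 2.61 to 4.23).

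Haemoglobin transcripts were higher in RNA-poor than in RNA-rich tissue of the injured slice but lower than in the slice at rest. Hbb-bs, a beta-globin, had 4.73 UMIs per 10000 in RNA-poor spots, 0.954 in RNA-rich spots and 10.7 at rest. The 4 haemoglobin genes had RNA-poor to RNA-rich ratios between 4.83 and 7.85. Hba-a1 with Hba-a2 and Hbb-bs with Hbb-bt are near-identical copies whose reads can be divided in different ways, so their sum is the firmer value. The erythroid list reached 8.64 per 10000 in RNA-poor, 1.66 in RNA-rich and 18.9 in RNA-rich spots at rest, with a ratio of 5.20 (4.76 to 5.67) within the slice and of 0.457 against the slice at rest.

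Mitochondrially encoded transcripts made up 17.5% of all UMIs in RNA-poor spots, 11.1% in RNA-rich spots, 12.8% in the spots between and 14.1% in RNA-rich spots at rest. Single RNA-poor spots ranged from 6.37% to 32.5% with a median of 17.8%, and RNA-rich spots from 2.92% to 20.7% with a median of 11.1%, so the groups overlapped. The ratio of RNA-poor to RNA-rich was above 1 for all 13 genes. It was smallest for mt-Co1, a subunit of cytochrome c oxidase (1.34, 1.32 to 1.36), and largest for mt-Atp8, a small subunit of ATP synthase (3.77, 3.56 to 3.99), and the interval of mt-Nd6 included 1. mt-Atp8 had 18.6 UMIs per 10000 in RNA-poor and 4.94 in RNA-rich spots. mt-Nd4l, a subunit of complex I, was the only other of the 13 past 2-fold (2.27, 2.09 to 2.46). Both genes overlap a neighbour on the same strand of the mitochondrial genome, mt-Atp6 and mt-Nd4, with which reads may be shared.

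Neuronal transcripts kept shares near those of RNA-rich tissue. The pan-neuronal and synaptic list had 55.2 UMIs per 10000 in RNA-poor, 50.3 in RNA-rich and 35.1 in intermediate spots, and 87.8 at rest. None of its 14 genes differed by 2-fold, which is near the share of all genes compared, of which 95.2% differed by less than that. Snap25, a protein of synaptic vesicle fusion, was at 17.8 against 14.5 per 10000 (ratio 1.23, 1.16 to 1.30), and Slc17a7, the vesicular glutamate transporter of cortical neurons, at 4.13 against 2.76 (interval of the ratio 1.33 to 1.68). Stmn2, a growth-associated protein of axons, had a ratio of 0.816 (0.711 to 0.934). The glutamatergic list had a ratio of 1.10 (1.06 to 1.15) and the GABAergic list one of 0.963 (0.892 to 1.04). In absolute terms an RNA-poor spot held 5.78 UMIs of the pan-neuronal list on average and an RNA-rich spot 86.0, a gap that goes with the choice of spots by total UMIs. Kif5a, a neuronal kinesin motor for axonal transport, stood apart from these lists with 15.6 against 6.35 per 10000 (2.45, 2.31 to 2.60).

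Most myelin genes had lower summed shares in RNA-poor spots. Of the 12 compared, 2 had ratios above 1, and 4 were at least 2-fold lower, beside 4.26% of all genes compared. Those above 1 were Mobp and Mbp. Mobp, a myelin-associated protein, had 19.7 UMIs per 10000 in RNA-poor and 9.86 in RNA-rich spots (2.00, 1.89 to 2.11). Mbp, myelin basic protein, had 45.2 and 29.1 (1.55). Trf, transferrin, was lower in RNA-poor spots (0.349, 0.321 to 0.378). The myelin list as a whole had a ratio of 0.966 (0.945 to 0.988) for summed UMIs. By spot the direction differed, with a median list share of 92.6 UMIs per 10000 in RNA-poor and 59.1 in RNA-rich spots. The upper quartile was higher in RNA-rich spots, at 183 against 138. With every spot thinned to the same total, a myelin transcript remained in 81.7% of RNA-poor and 64.2% of RNA-rich spots. Mbp and Mobp held 3666 and 1598 of the 8557 UMIs of the myelin list in RNA-poor spots.

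The lowest list ratios were those of choroid plexus, reactive astrocytes and dividing cells. Gfap, the intermediate filament of reactive astrocytes, had 2.92 UMIs per 10000 in RNA-poor, 6.03 in intermediate and 10.2 in RNA-rich spots (ratio 0.286, 0.251 to 0.326). Vim, another intermediate filament, stood at 6.05 against 11.5 (0.525, 0.479 to 0.575), and Serpina3n, a secreted protease inhibitor, at 0.900 against 2.73 (0.330, 0.258 to 0.416). Of the 10 reactive astrocyte genes compared, 5 were at least 2-fold lower, beside 4.26% of all genes compared. Only 1 was at least 2-fold higher, beside 0.547% of all genes: Tgm2, a transglutaminase that macrophages and endothelium make as well (2.41, 1.69 to 3.35). Slc1a2, the main glutamate transporter of resting astrocytes, had a ratio of 1.16 (1.08 to 1.24). Of the 12 homeostatic astrocyte genes compared, 4 had ratios above 1. Slc1a3 (0.608, 0.512 to 0.716) and Mlc1 (0.398, 0.293 to 0.529) were lower. The cell cycle list, with the proliferation marker Mki67 (0.514, 0.297 to 0.833), had a ratio of 0.462 (0.370 to 0.570). Relative to the slice at rest, RNA-poor spots were higher in both the reactive astrocyte list (9.83-fold) and the cell cycle list (8.19-fold). The slice at rest may differ in brain level, since the striatal neuron list was at 1.66 per 10000 in its RNA-rich spots and at 9.69 in those of the 2 dpi slice.

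Ttr, the transthyretin of choroid plexus epithelium, accounted for the lowest ratio bound, with 25.1 UMIs per 10000 in RNA-poor and 219 in RNA-rich spots (0.114, 0.109 to 0.120). Its level in RNA-rich tissue depended on place: 4.56 and 6.44 per 10000 in RNA-rich spots 1 to 2 and 3 to 4 steps from an RNA-poor spot, but 321 and 548 at 7 to 8 and 9 to 10 steps. Against the RNA-rich spots within 5 steps only, the choroid plexus and ependyma list was 3.45-fold higher in RNA-poor spots instead of lower. Within the RNA-poor field Ttr was between 17.8 and 29.8 per 10000 in bands of distance from RNA-rich spots that held at least 20 spots. By distance from the tissue edge it was at 15.1 (11.7 to 19.1) in the edge spots, 14.4 (12.1 to 17.0) at 1 to 2 steps and 35.3 (33.2 to 37.4) at 10 steps or more. It was present in 646 of the 775 spots. Clic6, a chloride channel protein of the same epithelium, had 26 UMIs in RNA-poor spots (0.218, 0.142 to 0.321). How much of the RNA in RNA-poor spots, Ttr or other, was free RNA from elsewhere on the slice was not tested. Kif9, a kinesin of motile cilia, had no UMI in RNA-poor and 151 in RNA-rich spots, with an upper interval bound of 0.339 for the ratio. With 3 UMIs put in place of 0 as a set floor, Kif9 was 3.67-fold lower, which is not an interval bound.

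**Figure D4:**
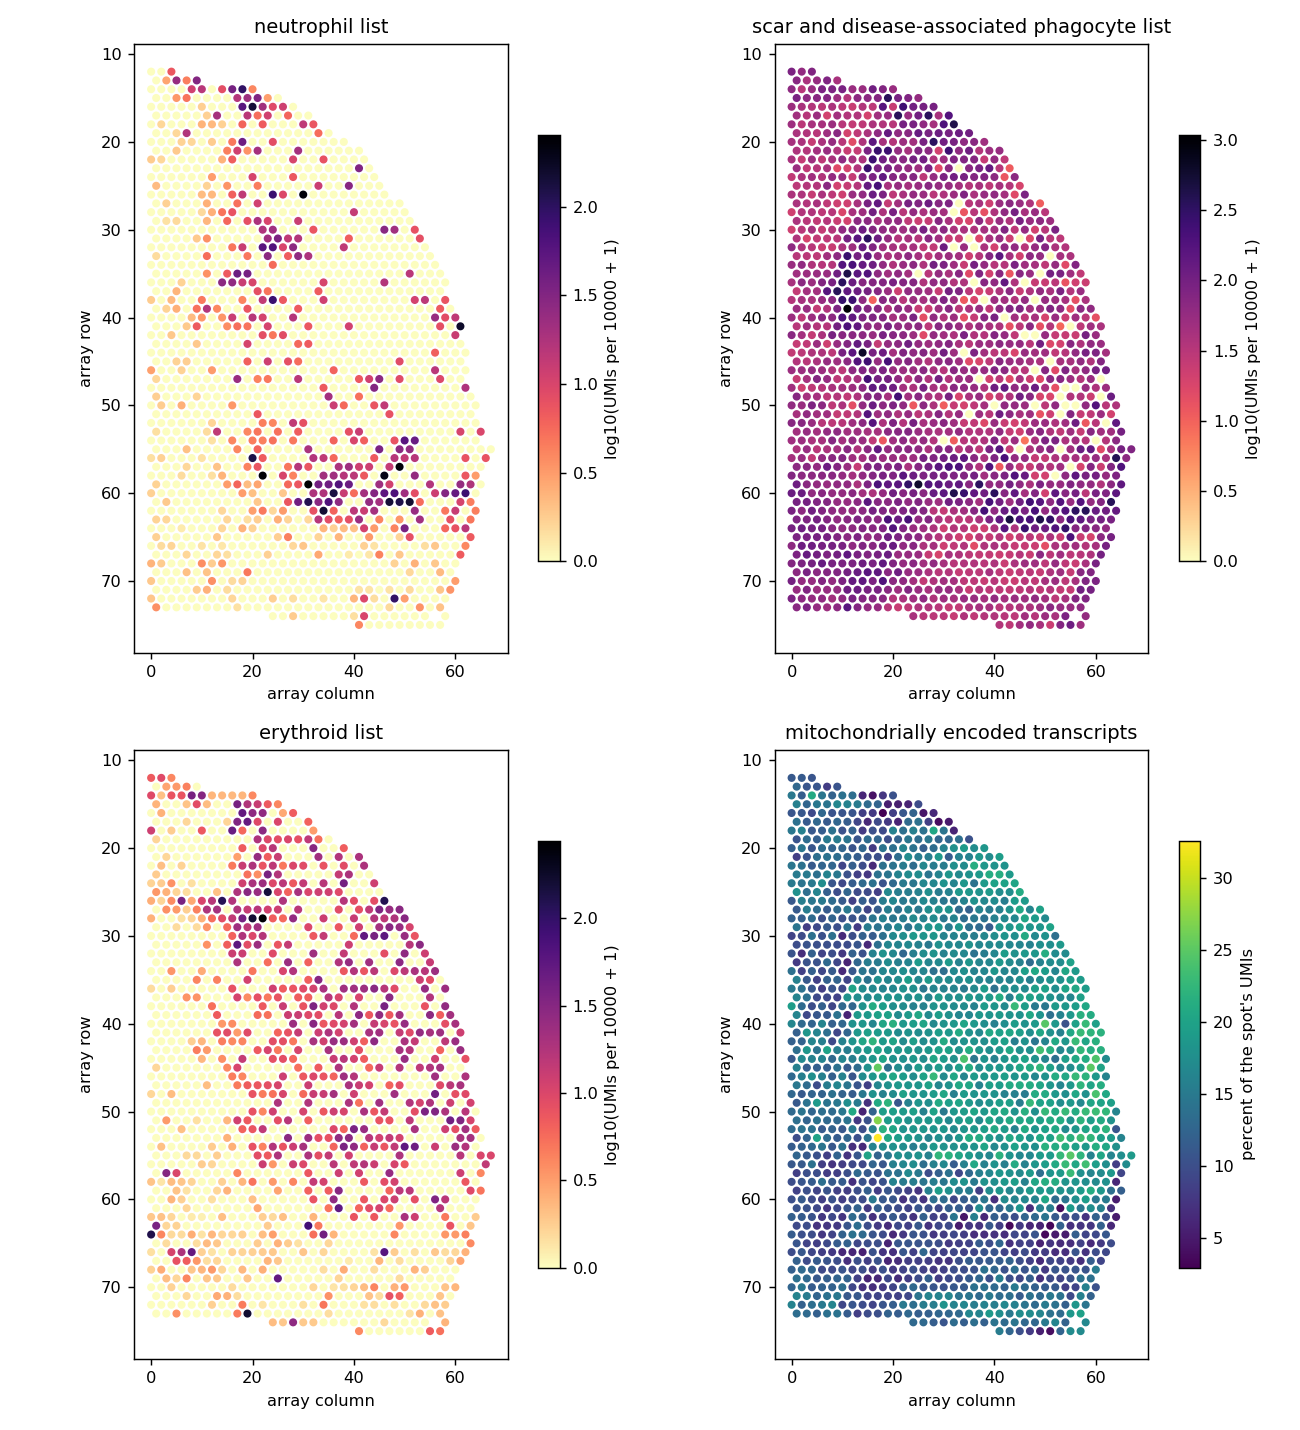
The 2 dpi slice by array column and row, with spots coloured by log10 of UMIs per 10000 plus 1 for the neutrophil, scar phagocyte and erythroid lists and by percent of UMIs for mitochondrially encoded transcripts. Neutrophil transcripts gather along the boundary of the RNA-poor field, most densely toward the deepest rows, and in few spots of its outer surface, erythroid transcripts are scattered through the field, and mitochondrial shares are higher across the whole field.

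The RNA-poor field was not uniform. Distances are in steps between neighbouring spots from the nearest RNA-rich spot. The neutrophil list stood at 27.3 UMIs per 10000 at 1 to 2 steps (41 spots), 10.6 at 3 to 4 steps (84 spots), 5.20 at 7 to 8 steps and 1.49 at 11 to 12 steps. It was at 11.8 again at 21 to 22 steps, where a single spot held 29 of its 37 UMIs, and at 2.70 there without that spot. The other bands were not recomputed without their highest spots, though the UMIs of this list were concentrated in few spots. On the other side of the boundary it was at 7.30 in RNA-rich spots 1 to 2 steps away and at 0.800 at 3 to 4 steps. The monocyte list peaked deeper, at 21.8 per 10000 at 3 to 4 steps against 12.9 at 1 to 2 steps, and was at 2.76 by 11 to 12 steps. The median UMI count of a spot was 1519 at 1 to 2 steps and 976 at 11 to 12 steps, so depth changed along with these levels, and its part in them was not tested.

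**Figure D5:**
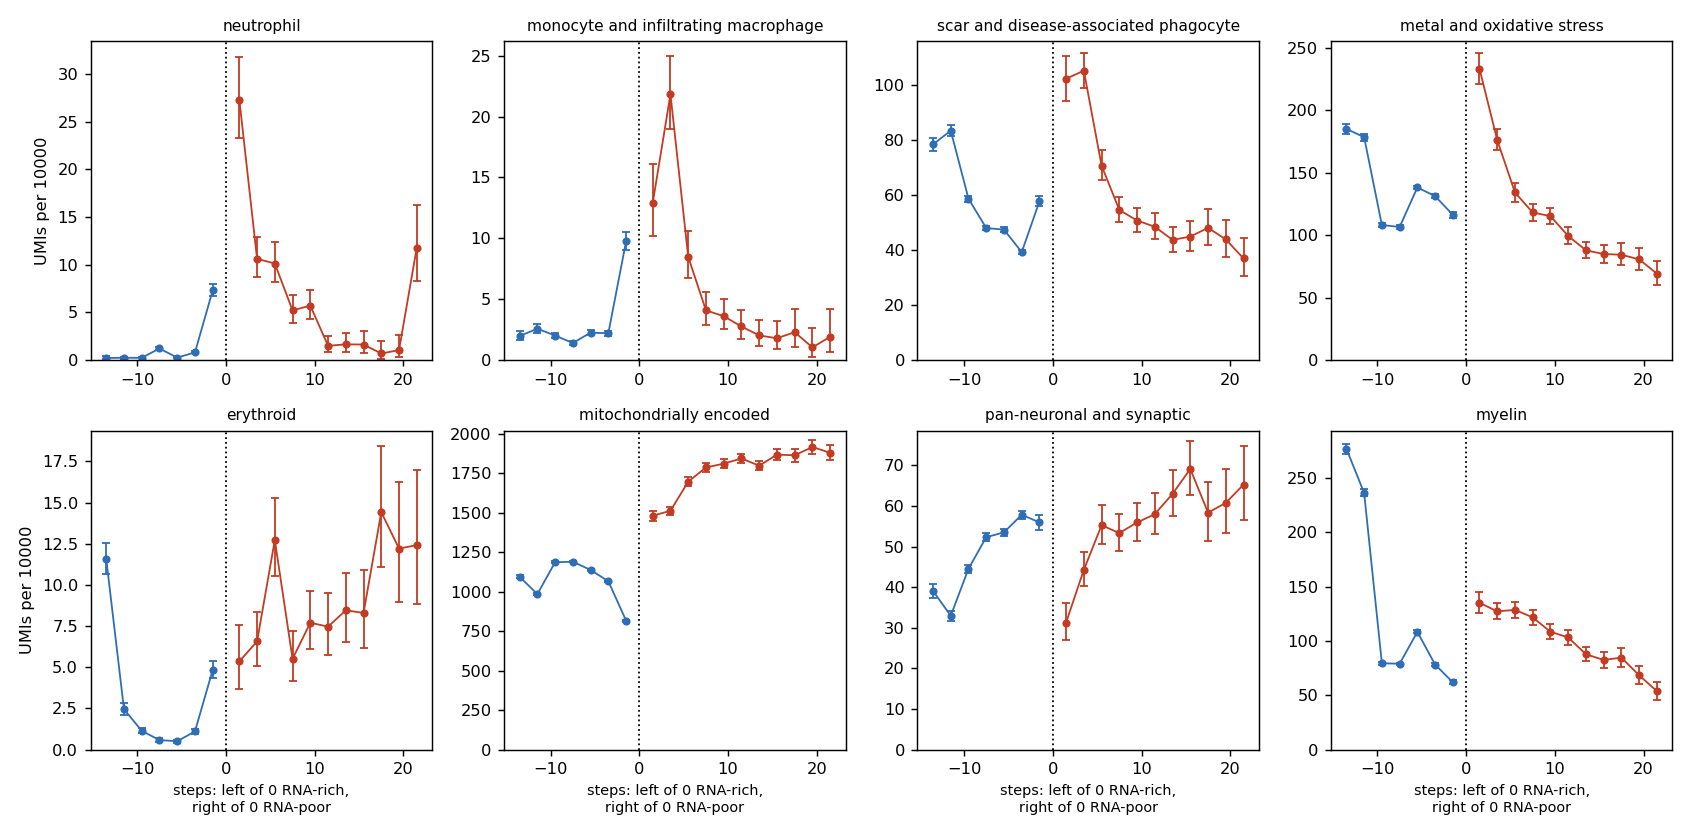
Summed UMIs per 10000 of 8 gene lists by distance in steps from the boundary, with RNA-rich spots left of 0 (blue, distance to the nearest RNA-poor spot) and RNA-poor spots right of 0 (red, distance to the nearest RNA-rich spot). Error bars are 95% counting intervals and bands under 20 spots are left out. Neutrophil, phagocyte and metal stress lists are highest in RNA-poor spots near the boundary, and mitochondrial and neuronal lists are higher deeper in the field.

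Comparing a rim of 212 RNA-poor spots at 1 to 6 steps with a core of 378 spots at 11 steps or more, 225 of 4199 genes (5.36%) were at least 2-fold higher in the rim and 197 (4.69%) at least 2-fold higher in the core. The rim and core, and the genes named for them, were chosen after the values were seen. Arg1 was at 2.24 UMIs per 10000 in the rim and 0.138 in the core (ratio 16.2, 6.55 to 51.9). Lyz2 was at 5.51 and 0.551 (9.99, 6.23 to 16.9), and Plin2 at 3.79 and 0.358 (10.6, 5.90 to 20.6). S100a8 was 6.32-fold (4.37 to 9.35) and S100a9 6.11-fold (4.24 to 8.99) higher in the rim, and the neutrophil list was 6.15-fold higher (4.85 to 7.89). That list ratio was not recomputed without the highest spots. The list had at least 1 UMI in 41.0% of rim and 12.2% of core spots, whose median totals were 1139 and 914 UMIs. The scar phagocyte list was 2.05-fold higher in the rim (1.92 to 2.19), with 8 of its 13 genes past 2-fold.

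Ferritin genes had the same direction. Ftl1, the ferritin light chain, was at 90.1 UMIs per 10000 at 1 to 2 steps and at 8.59 at 13 to 14 steps, a rim to core ratio of 6.44 (5.67 to 7.32). Fth1, the ferritin heavy chain, stood at 113 and 55.7 per 10000 at the same distances. The metallothionein Mt1, a metal-binding stress protein, showed no such gradient, with 14.4 at 1 to 2 steps and 13.3 at 13 to 14 steps. Kif5a was at 26.0 per 10000 in the rim and 6.94 in the core (3.75, 3.24 to 4.35), the latter near its level of 6.35 in RNA-rich spots. Mobp too was lower with distance, from 30.5 at 1 to 2 steps to 13.1 at 13 to 14 steps. Lars2, a mitochondrial leucyl-tRNA synthetase, was at 34.4 in the rim and 10.1 in the core (3.40).

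Deeper in the field the shares of neuronal and mitochondrial transcripts were higher. The pan-neuronal list was at 45.2 UMIs per 10000 in the rim and 62.5 in the core (ratio 0.724, 0.674 to 0.778), and the glutamatergic list at 24.9 and 35.9 (0.693, 0.629 to 0.763). Cck, a neuropeptide of cortical neurons, had a ratio of 0.529 (0.434 to 0.641). The mitochondrial list was at 1571 and 1855 per 10000 (0.847, 0.837 to 0.858). mt-Atp8 was at 10.5 at 1 to 2 steps and at 20.8 at 11 to 12 steps, whereas mt-Co1 was at 306 and 324. Position on the slice and distance from RNA-rich tissue cannot be told apart in 1 slice.

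At the outer surface, the 40 RNA-poor spots at the edge of the tissue differed from those further in. The fibroblast list was at 12.3 UMIs per 10000 (9.26 to 15.9) at the edge and between 2.21 and 3.07 in all bands from 1 step inward. Col1a1, the main fibrillar collagen chain of fibroblasts, had 16 of its 31 UMIs in the edge spots. Mgp, a matrix protein of vessels and meninges, was at 8.10 (5.70 to 11.2) at the edge and 1.23 (0.634 to 2.14) at 1 to 2 steps. Hbb-bs was at 9.85 (7.18 to 13.2) at the edge and 3.78 to 4.64 further in. Myelin transcripts ran the other way, with 47.0 per 10000 at the edge and 138 at 10 steps or more from it.

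Stress, vascular and immune gene lists differed in both directions. Heat shock and chaperone genes had a list ratio of 0.908 (0.881 to 0.935), with Hspa1a, an inducible chaperone, alone past 2-fold (3.17, 2.12 to 4.63, from 34 UMIs). The hypoxia-inducible and glycolytic list had a ratio of 0.929 (0.893 to 0.966), and the immediate early list one of 1.32 (1.23 to 1.42). In the latter only Nr4a3, an orphan nuclear receptor, was past 2-fold (2.68, 1.71 to 4.07, from 27 UMIs). Malat1, a long RNA kept in the nucleus, was at 12.5 against 12.1 per 10000 (1.04, 0.972 to 1.11). Endothelial genes had a list ratio of 0.784 (0.728 to 0.844), interferon-stimulated genes one of 0.601 (0.519 to 0.692) and complement genes one of 0.772 (0.712 to 0.836), with 3 of the 8 compared at least 2-fold lower and 1 higher by as much. Of 5 chemokines compared, 2 were at least 2-fold higher and 2 lower. Beside these chemokine and complement counts, 0.547% of all genes compared were higher and 4.26% lower by as much. Ccl6, a macrophage product, was higher (2.78, 1.98 to 3.81), and Ccl12, a monocyte attractant, lower (0.425, 0.296 to 0.592). MHC class II genes, which present antigen, had 37 UMIs in RNA-poor spots and a list ratio of 2.57 (1.76 to 3.67), with a rim over core ratio of 5.21 (1.87 to 18.0), and none of the 5 reached the count minimum. T and NK cell genes had 19 UMIs and a list ratio of 0.676 (0.403 to 1.07).

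The border-associated macrophage list was higher in RNA-poor spots (2.20, 1.85 to 2.61). Pf4 and F13a1, which are not particular to these cells, held 67 and 31 of its 160 UMIs there. Of its 4 genes compared, 3 had ratios above 1, and Mrc1 was lower (0.529). The fibroblast list was higher as well (1.69, 1.47 to 1.92). Of the 3 fibroblast genes compared, 2 had ratios above 1, and Dcn was lower (0.527, 0.324 to 0.814). The ratio was 0.902 (0.865 to 0.941) for homeostatic astrocytes, 0.772 (0.690 to 0.860) for oligodendrocyte precursors and 0.902 (0.896 to 0.909) for ribosomal proteins. None of the 77 ribosomal protein genes compared passed 2-fold, beside 95.2% of all genes compared that stayed within it. The cortical layer list had a ratio of 1.12 (1.01 to 1.24) and the striatal neuron list one of 0.893 (0.826 to 0.964). The ratio was 0.702 (0.566 to 0.861) for activated endothelium, 0.793 (0.675 to 0.925) for the integrated stress response, 0.936 (0.917 to 0.955) for metal and oxidative stress and 1.17 (1.09 to 1.25) for meningeal genes. The meningeal value was mainly that of Ptgds, with 810 of the 866 list UMIs in RNA-poor spots. Col18a1, the other of the 2 meningeal genes compared, was lower (0.381, 0.122 to 0.905). Intervals of the cytokine, cell death, nuclear-retained RNA, pericyte and smooth muscle, chemokine, and B and plasma cell lists included 1.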

How the data were processed

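The authors aligned the Visium reads with Space Ranger 2.0.0 to mm10, and the deposited matrices hold UMI counts without normalization. Other deposited files gave each spot's array position. Tissue spots were joined to their 6 neighbours, which gave 2 pieces in this capture area. UMIs were summed over RNA-poor spots (811445 UMIs) and RNA-rich spots (11122757 UMIs), divided by the group's total and given per 10000. Genes with at least 10 UMIs anticipated in RNA-poor spots were compared, and counted where past 2-fold. Ratios carry exact conditional 95% intervals (Python 3.11.15, scipy 1.17.1). Their coverage was tested on counts simulated from the same counting model, which leaves out the clumping of transcripts in few spots. The RNA-poor group, the 38 gene lists and the analyses were chosen with earlier results of these data known. One of 422 listed symbols, Ctgf, had no match. Named genes were the 20 highest and 20 lowest by the interval bound nearest 1 and, per list, the 4 with most UMIs and the highest and lowest ratio among genes compared. Arg1, Cxcr2, Camp, Ltf, Ly6g, Cck, Lars2, Col1a1, Mgp and mt-Nd6 fall outside this rule and were named after their values were seen, as were the bands of distance from the tissue edge. An edge spot lacks at least 1 tissue neighbour. Transcript lengths came from GENCODE M21. Alternatives changed the UMI limits, edge spots, total, pooling, depth, count minimum, fold and comparison tissue.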

Additional observations from a re-analysis of the deposited data

How the results depend on the processing

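With 1 slice, these values show how the description moves with its settings, and no value carries variation between mice. Reference values were 51 genes higher, 397 lower, and list ratios of 1.58 (mitochondrial), 6.92 (neutrophil), 0.119 (choroid plexus), 5.20 (erythroid) and, rim over core, 6.15 (neutrophil), 2.05 (scar phagocyte) and 0.724 (pan-neuronal). Genes higher numbered 90 without mitochondrial UMIs in the total, 123 after thinning to 200 UMIs, 203 against the slice at rest, 87 against RNA-rich tissue within 5 steps, 112 and 23 with at least 5 or 20 anticipated UMIs, and 373 at 1.5-fold. Genes lower numbered 172 after thinning, 727 and 180 with those minimums, and 1302 at 1.5-fold. Centring ratios on their median gave 88 higher and 311 lower. Other settings gave 41 to 74 higher. The mitochondrial ratio was 1.61 for RNA-poor spots of 200 to 1000 UMIs, 1.60 against spots of at least 12000, 1.59 without edge spots, 1.60 at 3 or more steps, 1.70 without mitochondrial UMIs in the total, 1.56 as a mean of spot shares, 1.59 thinned, 1.24 against rest and 1.68 against near tissue. The neutrophil ratio was 5.31 at 200 to 1000 UMIs, 5.27 at 3 or more steps, 5.71 as a mean of shares, 4.82 thinned, 168 against rest and 4.09 against near tissue. The erythroid ratio was 4.13 at 200 to 1000 UMIs and 6.56 without edge spots. The choroid plexus ratio was 0.127 at 200 to 1000 UMIs, 0.109 against at least 12000, 0.129 without mitochondrial UMIs, 0.188 as a mean of shares and 0.175 thinned. It turned to 4.78 against rest and 3.45 against near tissue. Against rest the erythroid ratio turned to 0.457, the reactive astrocyte ratio to 9.83 and the cell cycle ratio to 8.19. Rim over core, the neutrophil ratio was 10.2 at 200 to 1000 UMIs, 4.78 with RNA-rich spots of at least 5000 and 10.0 without edge spots. The scar phagocyte ratio was 1.48 at 200 to 1000 UMIs and 1.90 thinned, and the pan-neuronal ratio 0.860 at 200 to 1000 UMIs. The comparison with near tissue and the rim and core were chosen after seeing the data. The causes were not tested, other than that fewer or more genes were compared under thinning and other minimums. No paired analysis was possible because there was 1 slice and no test.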

Other observations

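Spots with 200 to 2000 UMIs were rare in the other wild-type slices. There were 14 of 978 and 1 of 947 in the 2 slices at 7 dpi, and 10 of 1343 and 2 of 827 in those at 21 dpi. The 14 spots of the larger 7 dpi slice held 75 UMIs of the neutrophil list among 23334 (32.1 per 10000), against 0.455 per 10000 in the RNA-rich spots of that slice. Their mitochondrially encoded transcripts were at 1642 per 10000, against 914 in the RNA-rich spots. The scar phagocyte list was at 165 per 10000 in them and at 226 in the RNA-rich spots. The 10 spots of the larger 21 dpi slice held no neutrophil UMI among 8937, and their mitochondrial share was 438 per 10000. The 2 such spots of the smaller 21 dpi slice had a mitochondrial share of 1670 per 10000, and the 2 of the slice at rest one of 1869. A high mitochondrial share in spots with few UMIs was thus also seen in uninjured tissue. The 1 such spot of the smaller 7 dpi slice had a share of 481. These are values of 1 slice each, with no test.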
